A study of Mus musculus with 6 samples.

Results

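The genes described are the growth hormone receptor, its kinase, the STAT factors it feeds and the genes that restrain it, as expressed in mouse liver. 10 genes of the 23474 in the deposited table were taken by symbol: Ghr, Jak2, Stat5a, Stat5b, Stat3, Cish, Socs1, Socs2, Socs3 and Bcl6. Their measured values played no part in the choice of symbols, although earlier results of these data were known. 9 of the 10 had a mean of at least 1 FPKM (fragments scaled by transcript length and library depth) and could be tested, and Socs1 could not. Male C57BL/6J mice received either high-fat food alone (HFD) or that food with an extract of Bangpungtongseong-san at 1.5% (w/w) mixed in (BT). Bangpungtongseong-san is a herbal medicine studied against fatty liver disease. 20 mice were split into 2 groups of 10, the diets began at 5 weeks of age and lasted 12 weeks, and the livers came from mice aged 17 weeks. Each diet had 3 libraries of liver mRNA. Both groups were on the high-fat diet, so no comparison with lean liver was made here.

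Whether 1 mouse or a pool of mice gave each library is not in the labels, and p-values therefore measure the spread between these libraries, which may be technical. A letter within the library codes differs between HFD and BT, so library set and diet cannot be told apart. Depth was roughly 13.8 to 15.8 M fragments per library, estimated from the smallest values. The tissue matched its label by the summed hepatocyte markers, 14700 to 45600 FPKM with HFD and 35800 to 38400 with BT, the lowest being HFD replicate 3, where Alb (albumin) is listed at 0. In bulk liver, fewer cells of a type and less RNA per cell cannot be told apart.

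Growth hormone binds its receptor on hepatocytes and activates the kinase JAK2, which phosphorylates STAT5A and STAT5B. The STAT5 proteins then enter the nucleus and switch on target genes, among them Igf1 and the feedback inhibitors CIS (gene Cish) and SOCS2. STAT3 is driven mainly by the interleukin-6 family of cytokines in liver, with SOCS3 as its feedback inhibitor. BCL6 is a repressor that can occupy STAT5 sites. In rodents the pulsatile male pattern of growth hormone secretion and the steadier female pattern give many liver genes a sex bias through STAT5. Because the pulses come and go, Cish and Socs2 mRNA in a liver also depend on when it was taken.

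STAT proteins bind a palindrome, TTCNNNGAA in the form preferred by STAT5, which reads the same on both strands. The promoter windows of the members with that motif are printed here because they show where such letters lie relative to the transcription start. RefSeq windows on GRCm38.p6, from 250 bases before to 50 after each start, held entries for 9 of the 10 members, in 13 windows. Socs2 had no entry. The stretches shown run 5′ to 3′ from 250 bases before to 20 after the start, with each match in capitals.
Cish, chr9:107296409-107296678, plus strand: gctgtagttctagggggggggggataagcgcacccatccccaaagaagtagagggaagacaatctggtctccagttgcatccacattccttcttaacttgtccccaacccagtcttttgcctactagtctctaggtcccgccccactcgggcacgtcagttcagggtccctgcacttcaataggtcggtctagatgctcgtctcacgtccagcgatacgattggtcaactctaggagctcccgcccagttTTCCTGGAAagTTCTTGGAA
Bcl6, chr16:23988833-23989102, minus strand: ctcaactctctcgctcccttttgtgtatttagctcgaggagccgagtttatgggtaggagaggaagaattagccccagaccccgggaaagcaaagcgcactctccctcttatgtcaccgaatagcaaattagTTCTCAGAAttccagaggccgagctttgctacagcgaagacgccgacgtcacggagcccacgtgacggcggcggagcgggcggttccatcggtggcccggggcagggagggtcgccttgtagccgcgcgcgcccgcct
Bcl6, chr16:23981264-23981533, minus strand: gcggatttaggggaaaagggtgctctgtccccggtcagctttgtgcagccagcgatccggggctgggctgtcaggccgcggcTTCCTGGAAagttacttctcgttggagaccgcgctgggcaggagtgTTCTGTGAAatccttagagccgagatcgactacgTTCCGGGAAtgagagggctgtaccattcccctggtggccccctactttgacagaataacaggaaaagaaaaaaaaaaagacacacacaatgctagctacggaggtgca
Socs3, chr11:117969347-117969616, minus strand: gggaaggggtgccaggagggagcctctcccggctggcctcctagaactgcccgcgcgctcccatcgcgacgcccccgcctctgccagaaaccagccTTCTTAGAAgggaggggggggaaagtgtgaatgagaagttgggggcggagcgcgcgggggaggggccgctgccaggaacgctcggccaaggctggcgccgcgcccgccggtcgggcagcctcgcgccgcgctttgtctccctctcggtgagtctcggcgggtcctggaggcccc

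Cish carried 2 matches, TTCCTGGAA beginning at base 1 and TTCTTGGAA beginning at base 12 of the transcript, both downstream of this start. Bcl6 carried 1 match, 118 bases before its upstream start, and 3 matches, 168, 122 and 88 bases before a start inside the gene. Socs3 carried 1, TTCTTAGAA, 154 bases before its start. No match lay in the windows of Ghr, Jak2, Stat3, Stat5a, Stat5b or Socs1. Among all 32851 RefSeq windows of this length, 8.3% held at least 1 match, 0.457% at least 2 and 0.0335% at least 3. The form with a spacer longer by 1 base, TTCNNNNGAA, was in 0 of the 13 windows and in 7.0% of all windows. The first 50 transcribed bases of the inner Bcl6 start and of the Socs3 start were not found in a GENCODE transcript of the same gene, so those starts are less certain. A find at any place in a transcript counted, so it does not settle a start. The Cish and Socs3 windows also lie wholly inside their GENCODE genes, which begin at 107296026 (Cish) and, on the minus strand, at 117970047 (Socs3). A match is a description of letters and says nothing of binding in these livers.

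**Figure D1:**
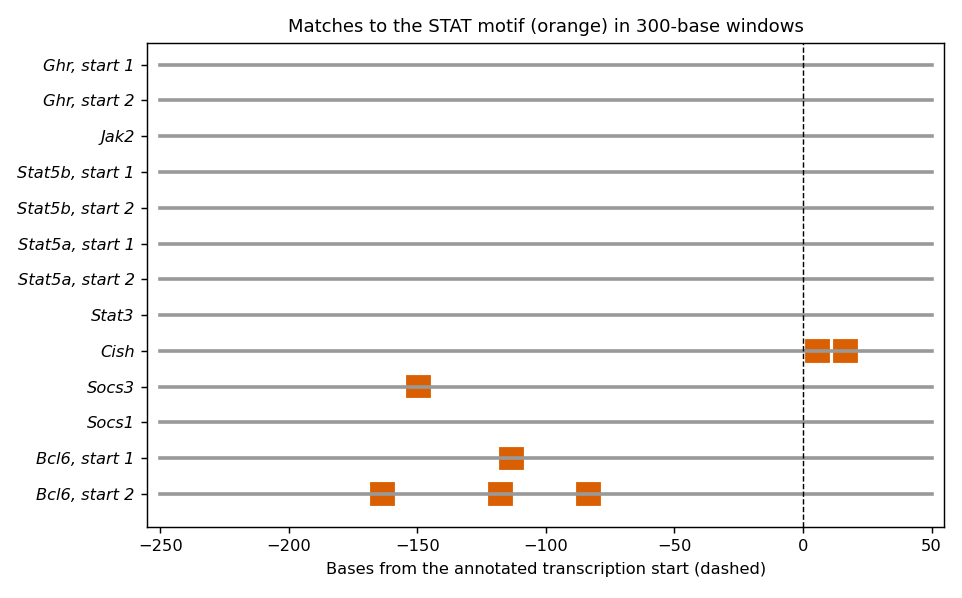
Position of each match to the STAT motif (orange) in the 13 promoter windows of 9 members, with bases from the annotated transcription start (dashed line) on the horizontal axis. Cish is the gene whose matches lie after the start; those of Bcl6 and Socs3 lie 88 to 168 bases before theirs, and the other windows are empty.

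Between the diets, 1 of the 9 members tested rose with BT, the feedback inhibitor gene Cish, and 0 fell (4 and 1 at an unadjusted limma p under 0.05). At the same unadjusted p, 1891 of the 10476 genes tested were higher and 1506 lower, which is also the background for the unadjusted counts below. By adjusted p, 6.01% of the whole table of 10476 genes tested were higher and 7.33% lower with BT. That is 630 and 768 genes, and 13.3% in either direction. These calls, here and throughout, use limma on log2(FPKM + 1) and a threshold of 0.05 on the p-value adjusted by Benjamini-Hochberg across that table. The split moved with the scaling and the libraries: median-of-ratios factors gave 459 higher and 862 lower, and rescaling to TPM gave 614 and 557. It was 855 and 681 when HFD replicate 3 was dropped, and 49 and 124 when BT replicate 1 was. It was 103 and 221 without BT replicate 2, 207 and 382 without BT replicate 3 and 221 and 400 without HFD replicate 2. Losses of calls in the lists below stand beside these losses over all genes. The 2 groups of 3 libraries did not overlap for 4 of the 9 members, all with BT above. Over the 10476 genes tested this held for 39.3% in either direction, 2430 genes with BT above and 1686 with BT below. The members' median difference was 0.21, beside 0.07 over all genes tested. The share called, 11.1%, lies near the background, and the common direction of the members was not tested. They are therefore described gene by gene.

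**Figure D2:**
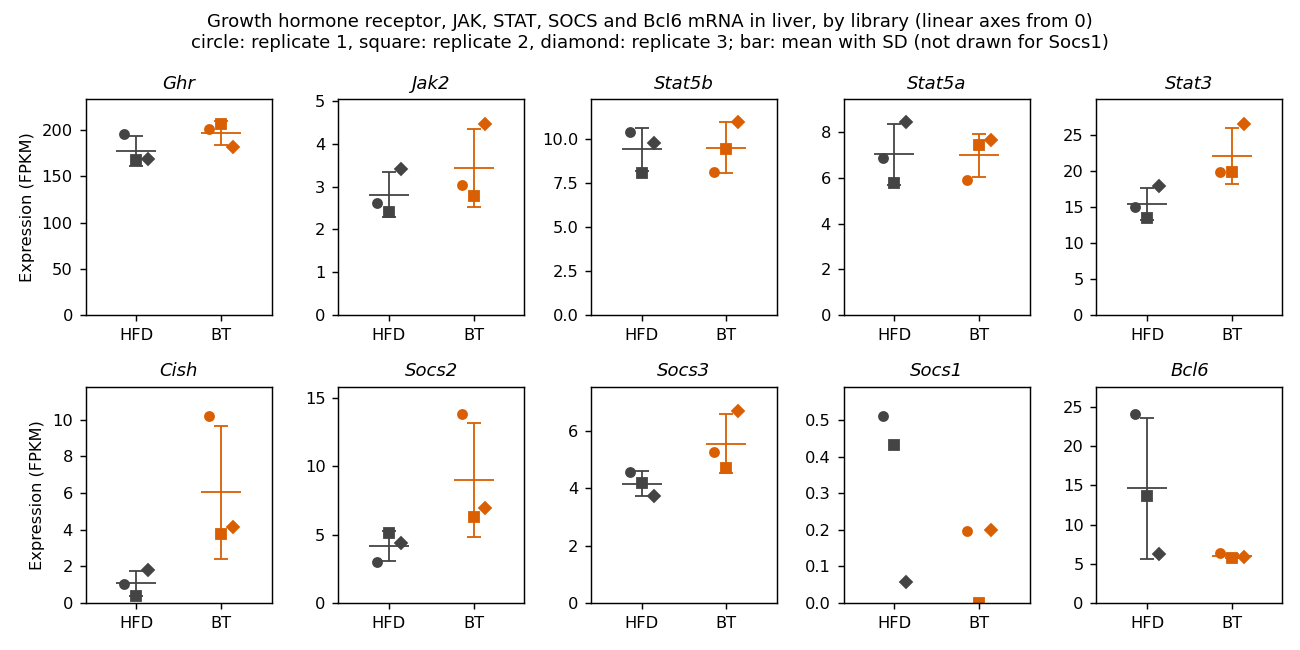
FPKM of the 10 members in each library (linear axes from 0, 1 panel a gene), HFD in grey and BT in orange, with mean and SD over 3 libraries. Cish, Socs2, Stat3 and Socs3 have all BT libraries above all HFD libraries, and Bcl6 is high in HFD replicates 1 and 2 and low in the other 4 libraries.

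The receptor and its kinase came first. Ghr (ENSMUSG00000055737, chromosome 15, 3317760 to 3583492) measured 196, 168 and 169 FPKM with HFD and 201, 207 and 182 with BT. It was the most abundant member on either diet, above 95.9% of the genes tested, and its ranges overlapped. The difference was 0.14 ± 0.11 on the log2(FPKM + 1) scale (SE, limma 95% interval -0.10 to 0.39, adjusted p = 0.383), so a difference of up to 0.39 is not set apart from the spread. Jak2 (ENSMUSG00000024789, chromosome 19, 29251828 to 29313080), the kinase bound to the receptor, measured 2.61, 2.42 and 3.42 FPKM with HFD and 3.05, 2.79 and 4.47 with BT. Its groups overlapped too (0.21 ± 0.17, interval -0.19 to 0.60, adjusted p = 0.432).

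The STAT5 genes, adjacent on chromosome 11, had almost equal means on the diets. Stat5b (ENSMUSG00000020919, 100780731 to 100850724) measured 10.4, 8.07 and 9.80 FPKM with HFD and 8.11, 9.45 and 11.0 with BT. Stat5a (ENSMUSG00000004043, 100859351 to 100885169) measured 6.90, 5.80 and 8.45 with HFD and 5.90, 7.43 and 7.66 with BT. The intervals of the log2 difference were -0.31 to 0.33 for Stat5b (adjusted p = 0.969) and -0.35 to 0.35 for Stat5a (adjusted p = 0.989) and differences of that size would not have been detectable here. Of the summed FPKM of the pair, Stat5b made up 60.1%, 58.2% and 53.7% with HFD and 57.9%, 56.0% and 58.9% with BT. mRNA says nothing of STAT5 phosphorylation, which was not measured here.

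Stat3, the neighbour of Stat5a on the opposite strand (ENSMUSG00000004040, 100885098 to 100939540), measured 15.1, 13.5 and 17.9 FPKM with HFD and 19.9, 19.9 and 26.6 with BT. All BT libraries lay above all HFD libraries, with means of 15.5 ± 2.22 and 22.1 ± 3.90 (SD, n = 3 each). The difference of 0.48 ± 0.15 (interval 0.14 to 0.82) missed the threshold at adjusted p = 0.066. It passed with quantile normalization, at the edge of the threshold, and was smaller, 0.30, with length and GC trends removed. Stat3 and Stat5a share 0.756% and 1.01% of their exon bases with each other.

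Cish (ENSMUSG00000032578, chromosome 9, 107296026 to 107302784), which encodes the SH2 protein CIS that blocks STAT5 docking on the receptor, measured 1.05, 0.392 and 1.77 FPKM with HFD and 10.2, 3.75 and 4.15 with BT. Every BT library lay above every HFD library, and BT replicate 1 stood above the other BT libraries. The mean went from 1.07 ± 0.689 to 6.04 ± 3.63 FPKM (SD, n = 3 each), 5.64-fold in FPKM, and the log2(FPKM + 1) difference was 1.71 ± 0.35 (interval 0.90 to 2.51, limma adjusted p = 0.0214). The lowest library held roughly 25 Cish fragments and the highest 691, an estimate that assumes the longest transcript. Leaving out 1 library at a time gave 1.31 to 1.94. The adjusted p rose to 0.0734 without HFD replicate 2 (difference 1.45) and to 0.057 without BT replicate 1 (difference 1.31), so the call was lost in either fit. Calls over all genes tested also fell there, to 221 higher and 400 lower and to 49 and 124. Exons of Gm17040 and Gm17041 on the other strand cover 11.5% of the Cish exon bases, and whether the counting used strand is not given in the sources used here.

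Socs2 (ENSMUSG00000020027, chromosome 10, 95385362 to 95417180), whose product marks the receptor for degradation, measured 2.97, 5.11 and 4.38 FPKM with HFD and 13.8, 6.29 and 6.92 with BT. As with Cish, the groups did not overlap and BT replicate 1 was the highest library. The mean was 4.15 ± 1.09 with HFD and 9.02 ± 4.19 with BT (SD, n = 3 each), but the difference of 0.90 ± 0.27 (interval 0.28 to 1.53) missed the threshold at adjusted p = 0.0605. None of 17 alternative settings brought it under 0.05, the adjusted p ranging from 0.0508 to 0.145, and it was 0.58 without BT replicate 1. The ratio of Cish to Socs2 in FPKM was 0.354, 0.0767 and 0.404 with HFD and 0.739, 0.596 and 0.600 with BT, so Cish stood closer to Socs2 in each BT library than in any HFD library.

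Socs3 (ENSMUSG00000053113, chromosome 11, 117966079 to 117970047), the inhibitor of receptors that signal through STAT3, measured 4.58, 4.20 and 3.72 FPKM with HFD and 5.27, 4.73 and 6.70 with BT. The groups were apart by little, and the difference of 0.34 ± 0.14 (interval 0.01 to 0.66) had an adjusted p of 0.139. Socs1 (ENSMUSG00000038037, chromosome 16, 10782240 to 10785536), an inhibitor of JAK kinases best known from interferon signalling, was at 0.511, 0.431 and 0.0581 FPKM with HFD. It was at 0.197 and 0.200 FPKM in BT replicates 1 and 3 and listed at 0 in BT replicate 2. These are at most roughly 23 fragments a library, and no difference was detectable at this depth.

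Bcl6 (ENSMUSG00000022508, chromosome 16, 23965052 to 23988852), the repressor, measured 24.1, 13.6 and 6.19 FPKM with HFD and 6.34, 5.79 and 5.84 with BT. The HFD libraries spread widely while the BT libraries were nearly equal, and HFD replicate 3 lay within the BT range. Means were 14.6 ± 9.02 and 5.99 ± 0.308 FPKM (SD, n = 3 each). The difference of -0.98 ± 0.37 (interval -1.83 to -0.14) missed the threshold at adjusted p = 0.109. It passed without HFD replicate 3 (-1.46, adjusted p = 0.0146) and shrank to -0.55 without HFD replicate 1, so single HFD libraries decide its size.

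**Figure D3:**
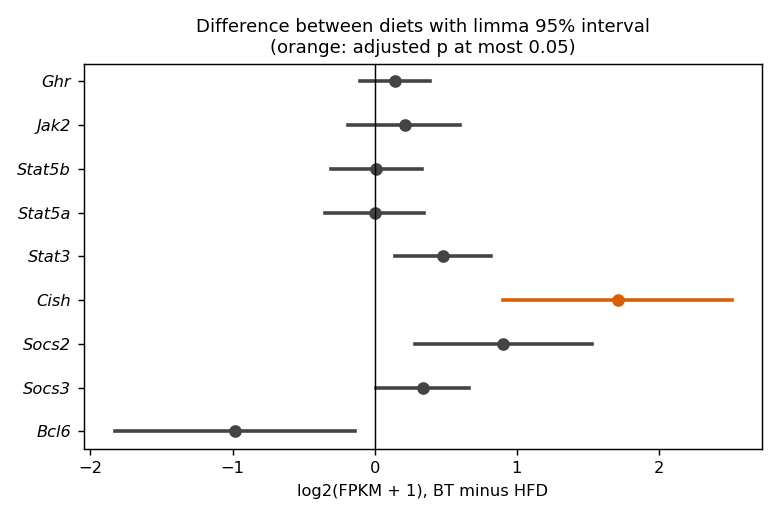
Difference between the diets for the 9 members tested, BT minus HFD in log2(FPKM + 1), with the limma 95% interval; orange marks an adjusted p at or below 0.05. Cish alone is orange, while the intervals of Socs2, Stat3, Socs3 and Bcl6 also leave out 0 before adjustment for multiple testing.

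FPKM is scaled by transcript length, so the members' levels can be set side by side. With HFD the order was Ghr, Stat3, Bcl6, Stat5b, Stat5a, Socs3, Socs2, Jak2, Cish and Socs1, and with BT it was Ghr, Stat3, Stat5b, Socs2, Stat5a, Cish, Bcl6, Socs3, Jak2 and Socs1. In the HFD order, neighbours whose ranges did not touch were Ghr and Stat3, Stat5a and Socs3, and Jak2 and Cish. In the BT order they were Ghr and Stat3, Stat3 and Stat5b, Socs3 and Jak2, and Jak2 and Socs1. No other neighbours in either order differed beyond the spread between libraries.

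**Figure D4:**
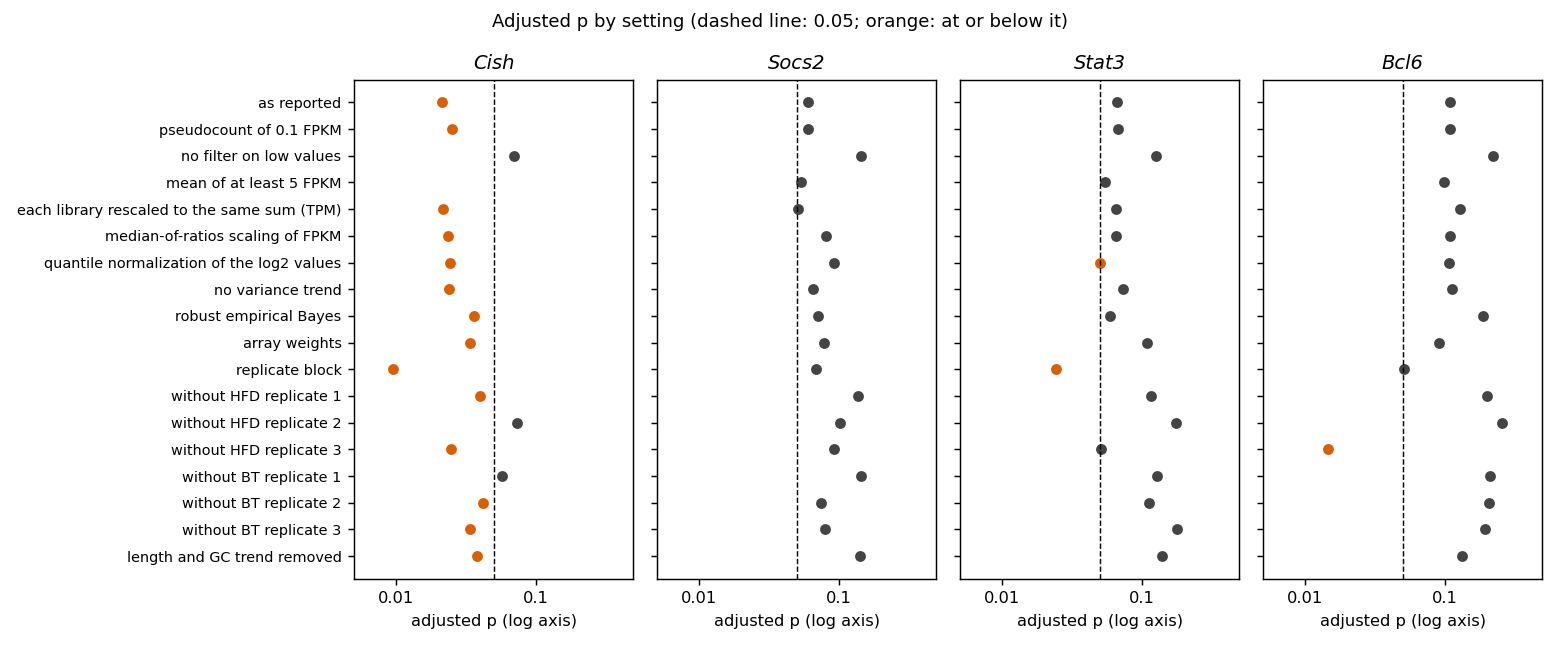
Adjusted p (log axis) of Cish, Socs2, Stat3 and Bcl6 in limma as reported and under each alternative, 1 row a setting; the dashed line is 0.05. Cish stays left of the line in 13 of 16 alternatives, Socs2 in none of 17, Stat3 in 2 of 17 and Bcl6 in 1 of 17.

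The genes whose profile over the 6 libraries lay nearest that of Cish were Ece1, A1cf and Zfp445, with root mean square distances of 0.36, 0.37 and 0.37 between centred log2(FPKM + 1) values. Ece1 encodes the endothelin-converting enzyme and measured 156, 87.2 and 231 FPKM with HFD and 554, 335 and 568 with BT. A1cf, which helps the enzyme that edits apolipoprotein B mRNA, measured 16.0, 10.3 and 25.4 with HFD and 56.7, 57.0 and 42.3 with BT. Zfp445, a zinc finger gene, measured 7.62, 4.84 and 13.2 with HFD and 26.7, 23.5 and 16.2 with BT. As with Cish, HFD replicate 2 was the lowest library of all 3 genes and HFD replicate 3 the highest HFD library. This likeness follows from picking the genes by their nearness to Cish in these libraries and is no separate result.

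Around the members, 36 of 46 listed signalling partners (receptors, kinases, STATs, adaptors, phosphatases and ubiquitin ligase subunits) could be tested. 6 rose (16.7%), 1 fell (2.78%) and 29 did not pass, beside 6.01% higher and 7.33% lower over all genes tested. The median was 0.20, beside 0.07. Prlr, the prolactin receptor, which like Ghr signals through JAK2 and STAT5, measured 23.1, 21.7 and 23.3 FPKM with HFD and 27.5, 31.5 and 29.6 with BT (0.36 ± 0.10, adjusted p = 0.0457). The interleukin-13 receptor chain Il13ra1 rose by 0.57 (adjusted p = 0.0285) and the interferon receptor chain Ifnar1 by 0.38 (adjusted p = 0.0387). Sh2b3, an adaptor that dampens JAK2 signalling, measured 4.80, 5.40 and 6.36 FPKM with HFD and 8.25, 9.09 and 7.51 with BT (0.51 ± 0.13, adjusted p = 0.0379). The kinase Jak3 rose by 0.44 (adjusted p = 0.0445) and Stat6, the STAT of interleukin-4 signalling, by 0.38 (adjusted p = 0.0497).

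Elob, a subunit of the elongin complex that SOCS box proteins such as SOCS2 use to reach ubiquitin ligases, fell from 128, 197 and 159 FPKM to 102, 102 and 88.9 (-0.70 ± 0.16, adjusted p = 0.0271). The phosphatases Ptpn1, Ptpn2, Ptpn6 and Ptpn11 differed by -0.17 to 0.15 with adjusted p of 0.36 to 0.827. Lifr, the leukaemia inhibitory factor receptor, measured 23.2, 13.9 and 11.9 FPKM with HFD and 39.0, 35.6 and 21.4 with BT and narrowly missed (0.94 ± 0.27, adjusted p = 0.0554). These partner calls were close to the threshold, and Prlr lost its call in each of the 6 fits without 1 library. With the trends of the difference on transcript length and GC content removed, Prlr was at 0.04 (adjusted p = 0.853) and Elob at -0.23 (adjusted p = 0.135), and Il13ra1 (adjusted p = 0.0516) and Ifnar1 (adjusted p = 0.0707) also lost their calls. Among the 36 partners tested, the number called was 0 without HFD replicate 2, BT replicate 1 or BT replicate 2, 1 without BT replicate 3, 3 if HFD replicate 1 was dropped and 5 if HFD replicate 3 was. Of 13 Bcl6 corepressor and sex-bias regulator genes, 11 were tested, and 0 fell (1 at an unadjusted limma p under 0.05). The 1 that rose (9.09%, beside 6.01% of all genes tested) was Nr1i3, the xenobiotic receptor CAR (0.94, adjusted p = 0.00351). Other genes overlapped 74.9% of its exon bases. The corepressor gene Ncor1 had all BT libraries above all HFD libraries but missed the threshold (0.57, adjusted p = 0.0563).

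The hormone outputs of the pathway went different ways. Igf1, the main circulating product of growth hormone action on liver, measured 269, 369 and 249 FPKM with HFD and 256, 269 and 198 with BT, with overlapping groups (-0.29 ± 0.18, adjusted p = 0.289). Igfals, the acid-labile subunit that holds IGF1 in a large plasma complex, rose from 38.8, 46.2 and 35.9 FPKM to 76.8, 82.7 and 57.8 (0.82 ± 0.15, adjusted p = 0.0162). Igfbp3, the binding protein of that complex, made in liver mainly by cells other than hepatocytes, fell from 5.86, 6.17 and 10.6 FPKM to 2.53, 3.95 and 3.29 (-0.97 ± 0.22, adjusted p = 0.0271). Igfals lost its call without BT replicate 1 or 2 (adjusted p up to 0.0732), and Igfbp3 without HFD replicate 2 or any BT library (up to 0.104). Stellate cell markers summed to 105 to 164 FPKM with HFD and 78.4 to 100 with BT. Of the 7 tested, 7 had a difference below 0, with a median of -0.41. The 1 called lower was Col3a1, and 3 were lower at an unadjusted limma p under 0.05, beside 1506 of all 10476 genes tested. The part of stellate cells in the Igfbp3 values was not tested.

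Genes that male livers express more than female livers were examined in a list of 30, of which 27 could be tested. 7 rose with BT and 0 fell by limma, with a median of 0.80. That is 25.9% higher, beside 6.01% of all genes tested. At an unadjusted limma p under 0.05, 12 were higher and 1 lower, beside 1891 and 1506 of all 10476 genes tested. C8b, a complement chain, rose from 31.7, 19.9 and 14.4 FPKM to 64.0, 55.8 and 44.9 (1.34 ± 0.25, adjusted p = 0.0168). Egfr, the epidermal growth factor receptor, rose from 18.1, 10.9 and 8.42 FPKM to 29.6, 46.1 and 22.4 (1.33 ± 0.30, adjusted p = 0.0284). Serpina1e, a protease inhibitor with near-identical paralogs that make its value uncertain, went from 110, 80.5 and 26.5 FPKM to 553, 254 and 153 (2.15 ± 0.56, adjusted p = 0.0414). The fatty acid hydroxylase Cyp4a12a (0.82), the glucuronosyltransferase Ugt2b1 (0.80) and the complement genes C6 (0.90) and C8a (0.48) completed the calls, with adjusted p of 0.0244 to 0.0495. Cyp4a12b, the paralog of Cyp4a12a, missed the threshold (1.95, adjusted p = 0.0597), and the split of that pair is uncertain. With length and GC trends removed, Egfr (adjusted p = 0.102), C6 (adjusted p = 0.0951) and Ugt2b1 (adjusted p = 0.0795) lost their calls.

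Several classical male genes had large differences within a spread too wide to pass. Hsd3b5, a steroid reductase, measured 2.58, 0.185 and 0.124 FPKM with HFD and 32.8, 11.8 and 1.50 with BT (2.61 ± 0.85, adjusted p = 0.0731). Slco1a1, an organic anion transporter, measured 42.9, 6.93 and 2.16 with HFD and 55.6, 48.5 and 41.1 with BT (2.25 ± 0.77, adjusted p = 0.0864). In both, HFD replicate 1 lay within the BT range. The male-biased elongase gene Elovl3 went the other way in value, 117, 43.0 and 42.8 FPKM with HFD and 38.7, 33.4 and 36.1 with BT (-0.72, adjusted p = 0.179). No major urinary protein gene of the list passed, with differences from -0.14 (Mup20, adjusted p = 0.724) to 1.35 (Mup7, adjusted p = 0.432). The split among these paralogs is uncertain, and Mup11 measured 385, 1930 and 169 FPKM with BT. Gstp1 was lower in every BT library than in any HFD library but missed the threshold (-0.41, adjusted p = 0.0662). Of the 27 genes tested, 4 had a difference below 0. The number of male-biased genes called was 0 without BT replicate 1 or BT replicate 2, 1 without HFD replicate 2 and 2 without HFD replicate 3. It was 4 without BT replicate 3 and 12 (11 higher and 1 lower) if HFD replicate 1 was dropped. Over all genes tested, the calls also fell, to 49 higher and 124 lower without BT replicate 1 and to 103 and 221 without BT replicate 2.

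Of 26 genes that female livers express more, 9 passed the filter on low values, as is usual in male liver. 4 of the 9 fell with BT, 0 rose and 5 did not pass by limma. The median of the 9 was -1.12, and 44.4% fell, beside 7.33% of all genes tested. At an unadjusted limma p under 0.05, 5 of the 9 were lower and 1 higher, beside 1506 and 1891 of all 10476 genes tested. Cyp2b9, a female-predominant cytochrome P450 with close paralogs, fell from 50.5, 103 and 132 FPKM to 13.0, 25.1 and 26.9 (-2.04 ± 0.37, adjusted p = 0.0148). Cyp17a1, a steroid hydroxylase and lyase, fell from 15.1, 22.1 and 35.4 FPKM to 6.99, 7.86 and 8.52 (-1.44 ± 0.26, adjusted p = 0.0144). Acot4, a peroxisomal thioesterase, fell from 3.26, 2.49 and 3.67 FPKM to 0.894, 0.691 and 0.503 (-1.28 ± 0.16, adjusted p = 0.00561), and kept its call without any 1 library. Slc22a27, an organic anion transporter, fell by 1.12 (adjusted p = 0.0492) but lost its call in 5 of 6 fits without 1 library and with length and GC trends removed (adjusted p = 0.07). Cyp17a1 lost its call without BT replicate 1, and Cyp2b9 without that library or HFD replicate 2. Cyp2a4 measured 2.48, 16.4 and 27.5 FPKM with HFD and 1.22, 4.26 and 2.26 with BT, with overlapping groups (-1.84 ± 0.68, adjusted p = 0.104). Hao2 and Cyp2b13, 2 female-biased genes below the filter that were picked after their values were seen, were at 0.805, 0.939 and 2.78 FPKM and at 0.199, 0.987 and 3.73 FPKM with HFD. With BT they were at 0.0351, 0.243 and 0.187 FPKM and at 0.107, 0.174 and 0.189 FPKM. Without 1 library, 1 to 5 female-biased genes were called, 1 without BT replicate 1 and 2 without HFD replicate 2. The 4 called without HFD replicate 3 were 3 lower and 1 higher.

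The HFD libraries differed among themselves along these lists. HFD replicate 1, the library with the most Bcl6, was the highest HFD library for 21 of 27 male-biased genes, against 28.8% of all genes tested, and the lowest for 6 of 9 female-biased genes, against 35.1%. HFD replicate 3, with the least Bcl6, was the lowest HFD library for 20 of the 27 male-biased genes, against 20.8% of all genes, and the highest for 7 of the 9 female-biased genes, against 43.0%. Within BT, replicate 1, which had the most Cish and Socs2, was the highest for 21 of the 27 male-biased genes, against 22.3%. The range over 3 libraries was wider with HFD than with BT for 22 of the 27 male-biased genes (81.5%, beside 69.7% of all genes tested). It was wider with HFD for 3 of the 9 members (33.3%), Bcl6 among them, while the SDs of Cish and Socs2 were larger with BT. Genes of a list vary together within a library, and 3 libraries give no test of this pattern.

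**Figure D5:**
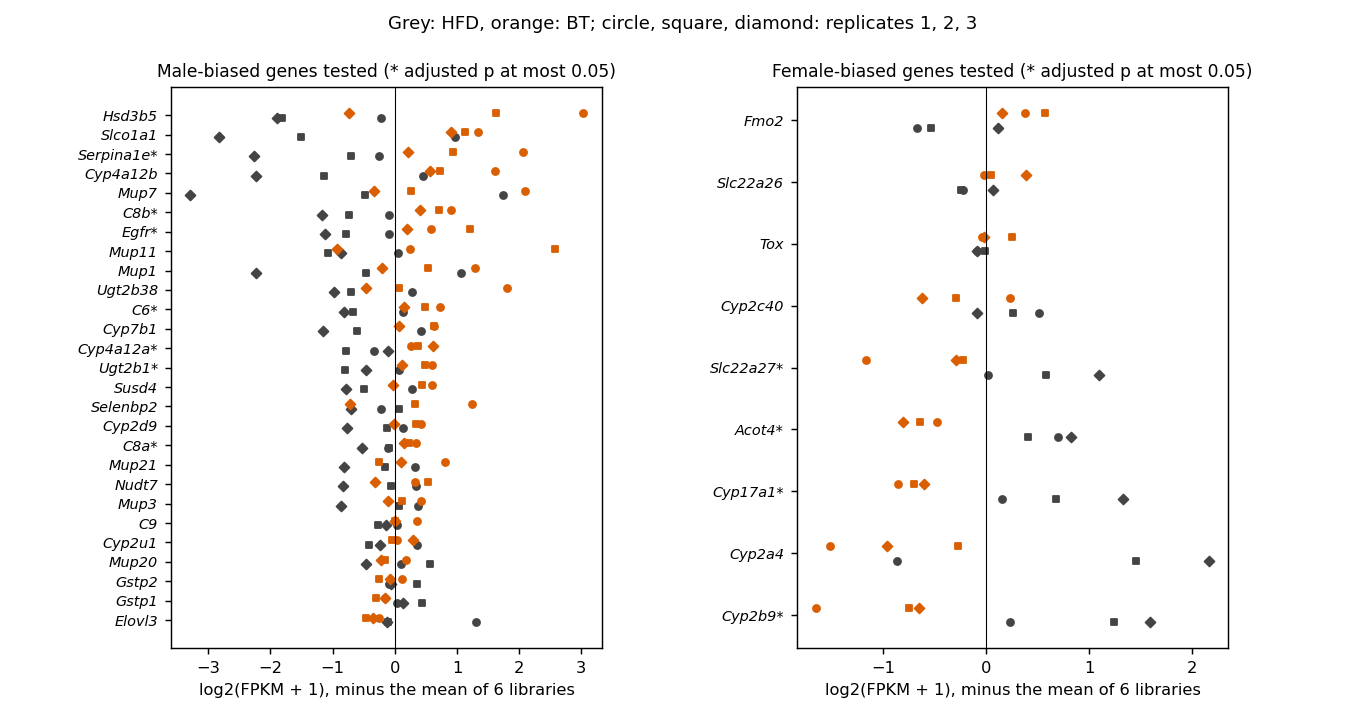
log2(FPKM + 1) minus the mean of 6 libraries for the 27 male-biased (left) and 9 female-biased (right) genes tested, HFD in grey and BT in orange, 1 symbol a replicate. Grey circles (HFD replicate 1) often lie nearest the orange points in both panels, and an asterisk marks the 7 and 4 genes with an adjusted p at or below 0.05.

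Downstream of STAT3, 27 of 29 listed acute phase and related liver genes could be tested, and 1 rose and 3 fell (median -0.00). These shares, 3.7% and 11.1%, lie near the 6.01% and 7.33% of all genes tested. C3, the central complement component, rose from 844, 761 and 830 FPKM to 1190, 1420 and 1310 (0.69 ± 0.12, adjusted p = 0.0129). Cebpb, a transcription factor of the acute phase, fell from 24.4, 25.5 and 36.6 FPKM to 11.3, 11.6 and 11.1 (-1.25 ± 0.15, adjusted p = 0.00561), with 20.7% of its exon bases overlapped by another gene. The orosomucoid genes Orm3 (-1.01, adjusted p = 0.0369) and Orm1 (-0.54, adjusted p = 0.0485) fell, and as close paralogs their split is uncertain. With length and GC trends removed, Cebpb was at -0.62 (adjusted p = 0.0758), Orm3 at -0.69 (adjusted p = 0.129) and Orm1 at -0.21 (adjusted p = 0.367), so all 3 lost their calls. The serum amyloid gene Saa1 measured 102, 140 and 118 FPKM with HFD and 73.4, 71.1 and 191 with BT, with BT replicate 3 above the rest. That library also had the highest Stat3 and Socs3. The list had 5 called without HFD replicate 1, 6 without BT replicate 3, 2 without HFD replicate 2 or HFD replicate 3, and 1 without BT replicate 1 or BT replicate 2.

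Other measures moved beside these genes. Of 17 clock genes tested, 7 rose (41.2%) and 1, Nr1d1, fell (5.88%), beside 6.01% and 7.33% of all genes tested. Tef went from 63.4 ± 6.13 to 119 ± 6.19 FPKM (SD, n = 3 each). Growth hormone feedback genes and clock genes both depend on the hour at which a liver is taken, which the labels do not give, and the part of sampling time in the Cish and Socs2 values was not tested. Of 14 immediate early genes tested, 3 fell (Jund, Klf2 and Jun) and 0 rose by limma. Those that fell made up 21.4%, beside 7.33% of all genes tested. At an unadjusted limma p under 0.05, 6 were lower and 0 higher, beside 1506 and 1891 of all 10476 genes tested. Exons of Gm11175 on the other strand cover 52.6% of the Jund exon bases. Klf2 (adjusted p = 0.175) and Jun (adjusted p = 0.0511) lost their calls with length and GC trends removed. Fos was at 7.41 FPKM in HFD replicate 1 and at 0.910 to 1.72 in the other 5 libraries, and HFD replicate 1 also had the highest Dusp1, 50.1 FPKM, and the highest Bcl6. Myc was at 19.4 FPKM in BT replicate 1, the library highest in Cish and Socs2, and at 1.24 to 4.16 in the others.

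Markers of other cells showed few calls. Leukocyte, Kupffer cell, endothelial, cholangiocyte, adipocyte and erythroid lists had 0 called genes, with 5, 8, 6, 1, 1 and 5 tested. At an unadjusted limma p under 0.05 the Kupffer list had 2 and the others 0. Of the pancreatic markers, 4 of 5 were at 0 in every library, and Cela1, the 1 tested, fell from 5.09 to 6.25 FPKM with HFD to 2.45 to 4.09 with BT (-0.67, adjusted p = 0.0322). Summed leukocyte markers were 33.6 to 50.5 FPKM with HFD and 33.6 to 84.6 with BT, the highest being BT replicate 3. Kupffer markers were 101 to 135 and 102 to 130, endothelial markers 28.1 to 43.6 and 32.0 to 40.5, and erythroid markers 196 to 333 and 119 to 418. Adipocyte markers, mostly Cfd, were 54.9 to 196 and 144 to 218, with Lep and Plin1 at 0 in all libraries but HFD replicate 1. The defining markers Lrat, Clec4g and Ms4a1 were at 0 in every library. A listed 0 need not mean absence, as Alb at 0 in HFD replicate 3 shows. Of the same cells, 7 of 8 stellate, 6 of 7 endothelial and 5 of 12 leukocyte markers passed the filter on low values. Whether these contents bear on the members was not tested.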

How the data were processed

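Liver mRNA of 6 libraries, 3 for each diet, was read from 1 table that the authors deposited, whose values are FPKM of 23474 Ensembl genes. Cufflinks 2.1.1, STAR 2.4.0 and CASAVA 1.8.2 appear in the submitters' processing notes. The sources used here do not name the build, the annotation or whether counting used strand. Coordinates and symbols come from GENCODE M21 on GRCm38 (22671 IDs named, 803 not) and promoters from RefSeq on GRCm38.p6. No 2 libraries held identical values, and 0 other columns of values were present. FPKM keeps no counts, so depth is a rough estimate, and fragments per gene assume the longest transcript.

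Values were tested as log2(FPKM + 1) with limma 3.58.1 (R 4.3.3, variance trend, 4 residual degrees of freedom before moderation), over the 10476 genes averaging 1 FPKM or more. Differences are BT minus HFD and understate changes of low genes. p-values were adjusted by Benjamini-Hochberg over all genes tested, with a threshold of 0.05. With 3 against 3, an exact permutation test cannot go below 0.1, so none was used. The code was tested on simulated data.

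Members and gene lists were chosen with earlier results of these data known. Named were all members, up to 6 called genes of each list by adjusted p, and the 3 genes nearest Cish; others named were chosen after their values were seen. Alternatives changed the pseudocount, filter, scaling, variance model, weights, replicate block or libraries. A fit with length and GC trends removed was added after seeing the data.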

Additional observations from a re-analysis of the deposited data

How the results depend on the processing

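Counts of called genes by limma (adjusted p at or below 0.05) are given for the members (1 as reported), signalling partners (7), male-biased (7), female-biased (4) and STAT3 acute phase genes (4). Without a filter on low values they were 0, 0, 0, 1 and 2. With a mean of at least 5 FPKM, Cish was not tested and 0 members were called. Quantile normalization called 2 members, Cish and Stat3. Median-of-ratios scaling called 3 partners and 3 male-biased genes, a fit with no variance trend 4 male-biased genes, and rescaling to TPM 2 STAT3 genes. With length and GC trends removed, 2 partners, 3 male-biased and 1 STAT3 gene were called. Leaving out 1 library at a time gave 0 to 2 members, 0 to 5 partners, 0 to 12 male-biased, 1 to 5 female-biased and 1 to 6 STAT3 genes.

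Replicate numbers are shared by the diets in the labels. Deviations of same-numbered libraries correlated at 0.163, 0.0972 and 0.147, not all above 0.1, so the numbers were not taken to pair the libraries, although every library correlated best with its own number. With a replicate block, 2 members (Cish and Stat3), 10 partners, 15 male-biased, 6 female-biased and 8 STAT3 genes were called.

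Differences near 0 changed sign. Ghr was -0.018 with length and GC trends removed. Stat5a was 0.077 with TPM and ranged from -0.119 to 0.118 without 1 library. Stat5b was -0.054 with median-of-ratios scaling, -0.058 with quantile normalization, -0.071 with array weights, -0.136 with length and GC trends removed, and -0.090 to 0.109 without 1 library. The cause of these shifts was not tested. 8 of the 36 named genes called passed without each library in turn, and 28 lost the call without BT replicate 1.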
